A study of Homo sapiens with 16 samples.

Results

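Human telomerase reverse transcriptase (hTERT, gene TERT) was the only labelled addition that separated the immortalized from the primary cells of the BJ fibroblast model, and the comparison of these cells at atmospheric oxygen is described here. It rests on 4 of the 16 libraries of the series, chosen by their labels alone: 2 libraries of primary BJ cells and 2 of the BJ hTERT+ line, both grown at atmospheric oxygen. BJ is an established line of normal human skin fibroblasts, and the immortalized line carries hTERT with no viral oncogene and no Ras. All 4 cultures had 6 passages in serum-containing medium, with the duplicate plates of each line grown in parallel. The same cells were also grown at 3% oxygen, which gave 4 further libraries of the same step and no shared sample. The other 8 libraries hold cells with SV40 Large-T, without and with mutated H-Ras, and enter here for the spread between replicates and as comparison values at a few loci. Each stage is 1 cell line and its replicates are plates of that line. The addition of hTERT therefore cannot be told apart from any other difference between the lines, and p-values measure the spread between plates. Where values come in pairs below, they are replicates a and b, and primary cells come before immortalized cells unless stated.

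Telomerase is a reverse transcriptase that adds repeats to chromosome ends. Most fibroblasts lack its catalytic subunit, their telomeres shorten as they divide, and they stop dividing when p53 with CDKN1A and RB with CDKN2A hold the cell cycle. Fibroblasts also build most of the collagen and elastic matrix of skin, contract it through smooth muscle type actin filaments, and release cytokines when they are stressed or near that arrest.

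The label of the immortalized line was checked first. TERT, on chromosome 5 from 1253262 to 1295183 of GRCh37 (minus strand), was listed at 0 in both primary libraries and at 115 and 193 TPM (transcripts per 1000000, a level corrected for transcript length) in the immortalized libraries. A single transcript of 16 exons, TERT-201, held 99.9% of the TERT signal in each immortalized library. The values do not tell an introduced cDNA from the chromosomal gene. Both lines were fibroblasts by their markers. All 14 fibroblast markers stood at 1 TPM or more in all 4 libraries, and their summed level was 22893 and 22431 TPM in the primary and 19403 and 19055 TPM in the immortalized libraries. Markers of other cell types were lower, and some of them moved with the comparison. Adipocyte markers summed to 6.67 and 6.3 TPM in the primary and 34.1 and 32.6 TPM in the immortalized libraries, most of it PPARG. Smooth muscle markers, which fibroblasts also use, summed to 371 and 370 TPM in the primary and 137 and 159 TPM in the immortalized libraries. Immune cell markers summed to 50.9 and 50.3 TPM in the primary and 158 and 165 TPM in the immortalized libraries, nearly all of it CD68, a lysosomal protein of macrophages that fibroblasts also make. CD68 had 48.9 and 48.3 TPM in the primary and 154 and 162 TPM in the immortalized libraries, while 5 of the 10 immune markers were listed at 0 in each primary and 7 in each immortalized library. Their part in the results below was not tested.

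Between 11756 and 11906 protein-coding genes exceeded 1 TPM in a library of the comparison, and replicates differed more than 2-fold for 3.22% of genes in primary and 3.14% in immortalized cells. A gene was called differentially expressed (a DEG) when its log2 difference exceeded 1 in either direction at a Benjamini-Hochberg adjusted p under 0.01 in limma. Of the 12388 genes tested, 1517 (12.2%) were called, 741 higher (5.98%) and 776 lower (6.26%) in immortalized cells. With libraries rescaled by median ratios, the calls were 844 higher and 707 lower. The median log2 difference over all genes tested was -0.09, and the libraries of the 2 lines did not overlap for 72.3% of genes. The 10 largest rises were those of CXCL8, TERT, IL24, IL6, IL1B, C3, CXCL1, CSF2, VAT1L and CSF3, of which 7 encode secreted cytokines and C3 a complement protein. The 10 largest falls were those of ALDH1A1, ELN, KRT19, STMN2, POSTN, MGARP, CRYAB, TMEM47, EFHD1 and MFAP5, which include an aldehyde dehydrogenase that makes retinoic acid, elastin and 2 further proteins of the matrix.

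**Figure D1:**
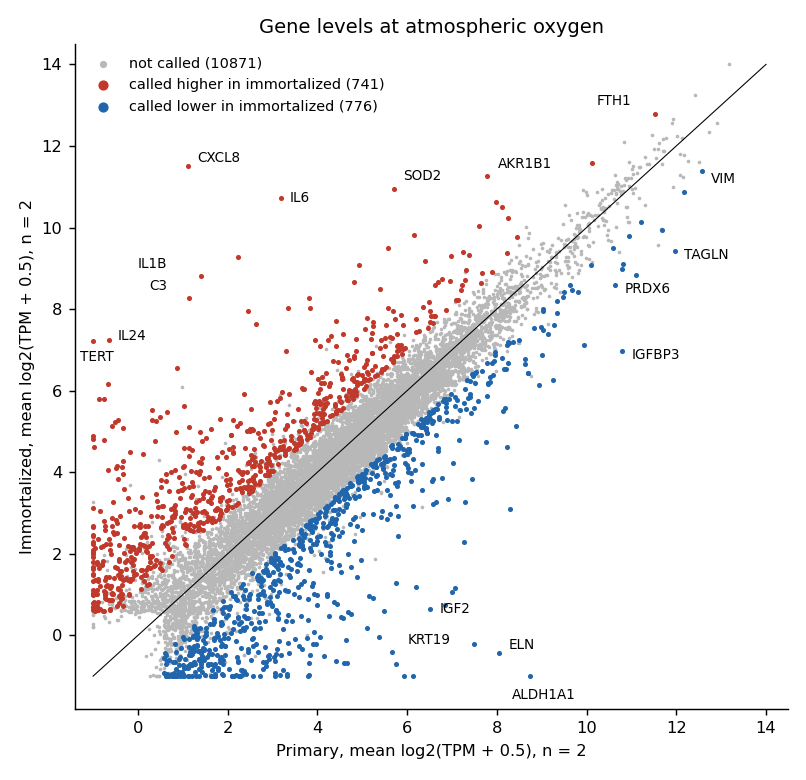
Mean log2(TPM + 0.5) of 2 primary libraries (x axis) and 2 immortalized libraries (y axis) at atmospheric oxygen, 1 point for each of the 12388 genes tested, with called genes in color and the line of equal level in black. Cytokine genes such as CXCL8 and IL6 lie far above the line near the left edge, and ELN and ALDH1A1 lie at the lower edge.

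ALDH1A1 had 468 and 391.8 TPM in the primary libraries and was listed at 0 in both immortalized libraries (adjusted p = 1.63e-09). STMN2, a tubulin-binding protein best known from neurons, had 71.7 and 67.4 TPM and was also listed at 0 after immortalization (adjusted p = 6.15e-10). VAT1L went the other way, from 0.0448 and 0.0437 TPM in the primary to 57 and 52.7 TPM in the immortalized libraries, a log2 difference of 6.67 (SE 0.41, adjusted p = 7.42e-07). None of these genes overlapped between the lines, as for 72.3% of all genes.

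Genes of inflammation held the largest rises. Of 25 tested cytokine and chemokine genes, 20 were called higher, against 5.98% of all genes, and none lower, also at an unadjusted p under 0.05, and their median log2 difference was 3.26. The list of 29 genes was drawn up with earlier results of these data known. A gene was tested at a mean of at least 1 TPM in either line. Genes near 0 TPM in primary cells, such as CSF2 and CXCL2, therefore entered only because they were high in immortalized cells. Such genes could hardly be called lower, so the counts and the median were in part set by this filter. CXCL8, the neutrophil chemokine IL-8, went from 2.25 and 1.19 TPM in the primary to 3653 and 2324 TPM in the immortalized libraries, a log2 difference of 10.4 (SE 0.75, adjusted p = 2.29e-06). IL6, a cytokine of the acute phase response, had 8.08 and 9.1 TPM in the primary and 2146 and 1339 TPM in the immortalized libraries (log2 difference 7.55, SE 0.71, adjusted p = 1.79e-05). IL1B, which starts much of this response, had 3.17 and 1.41 TPM against 589 and 336 TPM (log2 difference 7.4, SE 0.74, adjusted p = 2.64e-05). For each of these 3 genes the lowest immortalized library lay far above the highest primary library.

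IL24 rose from 0.0747 and 0.205 TPM to 194 and 117 TPM (log2 difference 7.89, adjusted p = 4.26e-07). Colony-stimulating factors, which drive the growth of myeloid cells, rose as a group. CSF2 had 0.299 and 0 TPM in the primary and 77.6 and 64.6 TPM in the immortalized libraries (adjusted p = 8.13e-05), CSF3 had 0 and 0.206 against 60.3 and 50.4 TPM (adjusted p = 0.00202), and CSF1, already expressed in primary cells, had 24 and 25.8 against 107 and 125 TPM (adjusted p = 2.73e-05). CCL2, the monocyte chemokine, started from 306 and 251 TPM and reached 1671 and 1268 TPM (log2 difference 2.39, SE 0.5, adjusted p = 0.00324). CXCL10 and CXCL11, chemokines induced by interferon, reached 5.57 and 3.93 TPM and 3.14 and 1.66 TPM from 0 and 0.0841 TPM and from a listed 0 in both primary libraries. CXCL12, which retains stem and immune cells in tissues, had 226 and 258 TPM in the primary and 214 and 257 TPM in the immortalized libraries (log2 difference -0.04, SE 0.23), and its libraries overlapped. Of the cytokines called higher and not yet named, IL1A had 0.598 and 0.166 against 10.8 and 9.05 TPM, CCL11 (eotaxin) 0.386 and 0 against 7.33 and 6.38 TPM, LIF 0.797 and 1.33 against 13 and 13.4 TPM, TSLP 0.0741 and 0.0361 against 1.79 and 1.82 TPM, CXCL5 0.245 and 0.273 against 2.67 and 1.69 TPM and IL11 14.3 and 19.1 against 53.8 and 49.9 TPM. CCL7, CCL26 and IL33 were tested and not called, with log2 differences of 2.38, 1.87 and -0.4, nor was CCL20, listed at 0 in both primary libraries and at 2.62 and 0.768 TPM in the immortalized libraries. Leaving out primary replicate a, primary replicate b, immortalized replicate a or immortalized replicate b left 13, 13, 13 and 15 of the 20 calls. With 1 library left out, the call was lost for CSF3, CCL2, LIF, TSLP and IL11 without any 1 of the 4 libraries and for CXCL11 and CXCL5 without primary replicate a, primary replicate b or immortalized replicate a (adjusted p between 0.0104 and 0.0315).

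CXCL1, CXCL2 and CXCL3 are chemokines in a cluster with CXCL8 on chromosome 4, and their sequences are nearly identical, so that reads could be shared among them and their single levels are uncertain. CXCL1 had 4.32 and 4.05 TPM in the primary and 739 and 527 TPM in the immortalized libraries (adjusted p = 0.000156), CXCL2 0.248 and 0.160 against 41.6 and 33.3 TPM (adjusted p = 1.92e-05), and CXCL3 0.291 and 0.188 against 42.3 and 35.1 TPM (adjusted p = 5.58e-05). CXCL6 in the same cluster had 0.109 and 0.248 against 40.4 and 29.8 TPM (adjusted p = 0.00023). All 5 genes of the cluster named here were higher in both immortalized libraries.

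The promoters of these genes are known for binding sites of NF-kB, the transcription factor that carries signals of IL-1 and of danger to the nucleus. The motif GGNNTTTCC was therefore searched on both strands in the 250 bases before the start of each gene, with sequences and starts from RefSeq (GRCh38.p14). It occurred in the promoters of 10 of the 15 cytokine genes called higher that had a promoter sequence, in 13.01% of the 569 promoters of all genes called higher, in 8.13% of 10034 tested genes with a promoter and in 6.69% of all 27305 genes. The 5 promoters that follow belong to the genes of the CXCL cluster and IL6, with the matches in capitals, each 5′ to 3′ on the strand of its gene and ending at the base before the start. A match is a run of letters and does not show that a factor was bound. Of the 10 genes with a match, CXCL1, CXCL2, CXCL3, CXCL5, CXCL6 and CXCL8 lie in 1 cluster. The promoters of CXCL1, CXCL2 and CXCL3 are near copies, so these matches are not independent. The motif was searched because such genes are known for these sites, so the count is a description and not a test.
CXCL8 (chr4:73740319-73740568, plus strand): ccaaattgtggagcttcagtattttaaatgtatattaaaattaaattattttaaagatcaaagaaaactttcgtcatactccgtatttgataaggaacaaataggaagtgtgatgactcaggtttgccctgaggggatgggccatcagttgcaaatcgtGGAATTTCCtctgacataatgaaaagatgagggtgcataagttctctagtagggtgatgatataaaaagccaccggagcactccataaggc
CXCL1 (chr4:73869143-73869392, plus strand): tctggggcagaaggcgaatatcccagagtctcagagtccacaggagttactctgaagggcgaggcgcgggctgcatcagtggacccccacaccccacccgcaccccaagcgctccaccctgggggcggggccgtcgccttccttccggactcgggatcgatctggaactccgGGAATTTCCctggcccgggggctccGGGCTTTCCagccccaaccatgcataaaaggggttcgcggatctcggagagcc
CXCL2 (chr4:74099196-74099445, minus strand): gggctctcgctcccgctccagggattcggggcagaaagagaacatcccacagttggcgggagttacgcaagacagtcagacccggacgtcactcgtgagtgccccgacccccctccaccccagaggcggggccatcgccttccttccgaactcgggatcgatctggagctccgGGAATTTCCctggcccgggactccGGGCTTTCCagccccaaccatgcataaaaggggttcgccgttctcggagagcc
CXCL3 (chr4:74038690-74038939, minus strand): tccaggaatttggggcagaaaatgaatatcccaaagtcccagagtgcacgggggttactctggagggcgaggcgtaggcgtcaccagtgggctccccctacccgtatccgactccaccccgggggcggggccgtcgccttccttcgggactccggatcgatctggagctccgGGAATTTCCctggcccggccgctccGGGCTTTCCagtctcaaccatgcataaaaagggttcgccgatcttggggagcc
IL6 (chr7:22726950-22727199, plus strand): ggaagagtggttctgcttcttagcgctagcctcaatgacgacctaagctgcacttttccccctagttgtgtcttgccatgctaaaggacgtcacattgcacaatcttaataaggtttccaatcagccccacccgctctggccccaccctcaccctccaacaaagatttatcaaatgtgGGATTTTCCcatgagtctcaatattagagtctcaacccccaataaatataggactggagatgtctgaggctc
The match nearest the start began at position -53 in CXCL1, CXCL2 and CXCL3, which carry a pair of matches each, at -91 in CXCL8 and at -72 in IL6, counted backwards from -1 at the base before the start.

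Part of the NF-kB system itself was also called higher, among it inhibitors that NF-kB induces. Of 14 tested, 7 were called higher (background 5.98%), with a median log2 difference of 1.55. At an unadjusted p under 0.05, 11 were higher and none lower. NFKBIA, the inhibitor that holds NF-kB in the cytoplasm, had 44.8 and 46.8 TPM in the primary and 210.4 and 183 TPM in the immortalized libraries (log2 difference 2.09, SE 0.28, adjusted p = 0.0002). NFKB2, the precursor of the p52 subunit, rose from 15.2 and 16.1 to 83.5 and 73 TPM (log2 difference 2.28, adjusted p = 1.56e-05), and NFKB1 from 24 and 25.5 to 54.6 and 52.8 TPM (adjusted p = 0.00123). BIRC3, an inhibitor of cell death, had 1.4 and 1.31 against 12.1 and 10.2 TPM, and NFKBIZ, a nuclear cofactor needed for IL6, 7.93 and 12.3 against 66.7 and 53.1 TPM, with log2 differences of 2.65 and 2.53. RELA, the main activating subunit, was not called, at 53.1 and 56.2 TPM in the primary and 50.2 and 52.1 TPM in the immortalized libraries (log2 difference -0.09, SE 0.11, adjusted p = 0.536). TNFAIP3, another inhibitor, had 6.49 and 11.2 TPM against 67.1 and 51.6 TPM and missed the threshold (log2 difference 2.71, SE 0.7, adjusted p = 0.011). The inhibitors NFKBIE and TNIP1 rose by log2 differences of 1.77 and 1.33 (adjusted p = 0.000545 and 4.85e-05). The call was lost for NFKB1 without primary replicate a or immortalized replicate a (adjusted p between 0.0113 and 0.0119).

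C3, the central protein of complement, stood at 1.55 and 1.9 TPM in the primary and 353 and 267 TPM in the immortalized libraries (log2 difference 7.12, SE 0.51, adjusted p = 2.20e-06). SOD2, the mitochondrial superoxide dismutase, had 51.3 and 52.4 TPM in the primary and 2208 and 1780.0 TPM in the immortalized libraries (log2 difference 5.24, SE 0.45, adjusted p = 9.57e-06), which placed it among the 5 largest rises in TPM. Neither gene overlapped between the lines, as for 72.3% of all genes.

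Interferon-stimulated genes, which arm cells against viruses, were higher in immortalized cells in 33 of 34 cases by sign, with no overlap between the lines for all 33 (background 31.6% of all genes), and their median log2 difference was 1.64. Of the 34, 8 were called higher and none lower, 24 were higher and none lower at an unadjusted p under 0.05, and leaving out primary replicate a, primary replicate b, immortalized replicate a or immortalized replicate b reduced the 8 to 3, 1, 1 and 2. BST2, which tethers budding viruses to the cell, was the firmest call and went from 0.208 and 0.403 TPM in the primary to 16.9 and 21 TPM in the immortalized libraries (log2 difference 4.6, SE 0.5, adjusted p = 4.61e-05). OAS1, a sensor of double-stranded RNA, had 1.74 and 0.185 TPM against 39.1 and 37.4 TPM (log2 difference 4.97, SE 1.0, adjusted p = 0.00278). IFIT3, which binds foreign RNA together with its relatives, had 18 and 18.5 TPM against 161 and 142 TPM (log2 difference 3.02, SE 0.63, adjusted p = 0.00328). IFIT1 had 17 and 18.3 against 143 and 119 TPM and did not pass (adjusted p = 0.0186). The other called genes were OAS2, IFI6, HERC5, HERC6 and IRF1, with log2 differences of 3.31, 3.06, 2.63, 2.62 and 1.61, and IRF1, a transcription factor of this response, had 15.5 and 15 against 49.2 and 45.9 TPM. Leaving out single libraries removed the call for IFIT3, OAS2, IFI6, HERC5 and HERC6 without any 1 of the 4 libraries, for OAS1 without primary replicate b, immortalized replicate a or immortalized replicate b and for IRF1 without primary replicate b or immortalized replicate a (adjusted p between 0.0103 and 0.0603).

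The element bound by interferon-regulated factors was searched as TTTC, any 2 bases and TTTC, on both strands in the same windows. It occurred in 4 of the 7 called genes with a promoter sequence (BST2, HERC5, IFI6 and IFIT3), in 5.98% of the 569 promoters of all genes called higher, in 3.46% of tested genes and in 3.71% of all genes. IFIT3 has 2 such windows in RefSeq, and the one shown holds a pair of matches, in capitals, the nearer one at position -51.
IFIT3 (chr10:89332279-89332528, plus strand): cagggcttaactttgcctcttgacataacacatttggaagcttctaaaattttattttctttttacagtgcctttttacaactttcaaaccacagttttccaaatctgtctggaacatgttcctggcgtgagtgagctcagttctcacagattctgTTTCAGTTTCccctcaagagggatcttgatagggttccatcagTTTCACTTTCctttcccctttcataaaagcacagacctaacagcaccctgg

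Antigen presentation followed with fewer calls. Of 9 tested genes 3 were called higher (background 5.98%) and none lower (4 and none at an unadjusted p under 0.05). The 3 were PSMB8 and PSMB9, subunits of the immunoproteasome, and TAPBP, which loads peptides. PSMB9 had 2.04 and 1.44 TPM in the primary and 5.58 and 5.43 TPM in the immortalized libraries (log2 difference 1.44, adjusted p = 0.00505), and PSMB8 2.81 and 0.413 against 6.49 and 7.4 TPM, with a wide gap between the primary replicates. B2M, the light chain of class I molecules, had 4245 and 3614 TPM against 6770.5 and 6200.0 TPM and was not called (log2 difference 0.73, adjusted p = 0.0112). A fit with 1 library fewer lost the call for PSMB9 without any 1 of the 4 libraries, for PSMB8 without primary replicate b, immortalized replicate a or immortalized replicate b and for TAPBP without primary replicate a or immortalized replicate b (adjusted p between 0.0136 and 0.0589).

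The matrix went the opposite way. Of 42 tested matrix proteins other than collagens, 18 were called lower and 2 higher in immortalized cells (background 6.26% lower), with a median log2 difference of -1.04. ELN encodes elastin, the rubber-like core of elastic fibers, and stood at 238 and 295 TPM in the primary and 0.184 and 0.306 TPM in the immortalized libraries (log2 difference -8.48, SE 0.23, adjusted p = 1.91e-09). The fibrillins and their partners on which elastin is laid down were lower too. FBN2 had 12.4 and 14.6 TPM against 0.0156 and 0.00697 TPM, FBN1 431 and 403 TPM against 86.5 and 84 TPM (log2 difference -2.28, adjusted p = 3.59e-06), and MFAP5, which binds fibrillin, 138 and 130.2 TPM against 2.29 and 1.28 TPM (log2 difference -5.92, adjusted p = 3.53e-05). LTBP2, which also sits on these fibers, fell from 88.8 and 99.1 to 11.46 and 15.3 TPM. MGP, which keeps calcium out of soft tissue, fell from 30.2 and 17.6 to 1.29 and 0.509 TPM, LAMA2, a laminin chain of basement membranes, from 44.6 and 41.2 to 7.93 and 7.7 TPM, and BGN (biglycan) from 380.0 and 339 to 135 and 170.2 TPM, with adjusted p = 0.000123, 3.97e-05 and 9.71e-05.

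POSTN (periostin) had 63.5 and 58.5 TPM and COMP, a cartilage and tendon protein, 12.9 and 13.7 TPM in the primary libraries, and both were listed at 0 in both immortalized libraries (adjusted p = 7.29e-09 and 1.89e-08). TGFBI, a matrix protein named for its induction by TGF-beta, fell from 377 and 313 to 32 and 37.1 TPM (log2 difference -3.3, SE 0.1, adjusted p = 5.78e-09). Among the most abundant transcripts, FN1 (fibronectin) fell from 3470.0 and 3151 to 962 and 998 TPM (log2 difference -1.75, adjusted p = 0.000783) and SPARC from 5005 and 4283 to 1867 and 1872 TPM (log2 difference -1.31, adjusted p = 0.00083). FN1 and SPARC were among the 5 largest falls in TPM. THBS2, a thrombospondin that restrains blood vessel growth, had 248 and 232 TPM in the primary and 78.7 and 89 TPM in the immortalized libraries (log2 difference -1.51, SE 0.16, adjusted p = 4.11e-05). THBS1, its relative, had 3106 and 3089 TPM against 788 and 731 TPM, a log2 difference of -2.03 (SE 0.55). It missed the threshold at an adjusted p of 0.0138 although the lines did not overlap, as for 72.3% of all genes. Without the 2 metastasizing libraries at 3% oxygen in the fit, the adjusted p of THBS1 was 1.88e-07, and with array weights 8.81e-05, over a range of 1.88e-07 to 0.0262 among all alternatives.

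Not all matrix genes fell. Decorin (DCN), which coats collagen fibrils, had 1074 and 957 TPM against 1981 and 1762 TPM. Its log2 difference was 0.88 (adjusted p = 0.0623, and 0.000248 to 0.0973 among the alternative fits). Lumican (LUM), a proteoglycan of the same family, had 3489.8 and 2841 against 4576 and 4051 TPM (adjusted p = 0.454). LTBP1, which stores latent TGF-beta in the matrix, rose from 26.6 and 24.7 to 65.3 and 63.8 TPM (adjusted p = 0.00488), and CCN3, a matrix signal protein, by a log2 difference of 1.06 (adjusted p = 0.00104). With 1 library left out, the call was lost for LTBP1 without any 1 of the 4 libraries and for CCN3 without primary replicate a or immortalized replicate b (adjusted p between 0.0106 and 0.0336, in part at the fold limit).

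Of 26 collagen chains tested, 8 were called lower and 2 higher (background 6.26% and 5.98%), with a median log2 difference of -0.62. Both chains of the main basement membrane collagen fell, COL4A1 from 289 and 271 to 43.8 and 46.5 TPM (log2 difference -2.62, SE 0.26, adjusted p = 2.20e-05) and COL4A2 from 373 and 415 to 103 and 114 TPM (adjusted p = 1.34e-05). COL5A1, which sets the width of collagen fibrils, fell from 403 and 431 to 75.3 and 97.3 TPM (adjusted p = 0.000215). The major fibrillar chains were not called, although their libraries did not overlap between the lines, as for 72.3% of all genes. COL1A1 had 2659 and 3902 TPM in the primary and 775 and 1294 TPM in the immortalized libraries (log2 difference -1.68, adjusted p = 0.0107). COL1A2 had 5109.9 and 4065 against 2514 and 2331 TPM (log2 difference -0.91, adjusted p = 0.12). COL3A1 had 536 and 519.5 against 354 and 355 TPM (log2 difference -0.57, adjusted p = 0.321). The spread came from all 16 libraries, and among the alternative fits these adjusted p varied widely. They ranged from 0.00111 to 0.0216 for COL1A1, from 0.00107 to 0.176 for COL1A2 and from 0.000384 to 0.412 for COL3A1. The rises were in COL14A1, from 0.531 and 0.511 to 3.89 and 3.69 TPM, and COL4A6, from 0.230 and 0.314 to 1.44 and 1.25 TPM, both low. The other called chains were COL8A2, COL8A1, COL15A1, COL11A1 and COL12A1, lower by log2 differences of -2.9, -1.2, -1.65, -1.63 and -1.29. The call was lost for COL15A1 without any 1 of the 4 libraries and for COL4A6 without immortalized replicate a (adjusted p between 0.0103 and 0.0449).

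Enzymes that cut the matrix and their inhibitors split evenly, with 7 of 28 called higher and 7 lower (6, 5, 5 and 5 higher and 3, 6, 5 and 6 lower with 1 of the 4 libraries left out). The background was 5.98% higher and 6.26% lower. PLAU, the urokinase that activates plasmin, rose from 42.4 and 40.6 to 396 and 325 TPM (log2 difference 3.09, SE 0.22, adjusted p = 2.18e-06). MMP3, stromelysin, rose from 238 and 264 to 1972 and 1255 TPM (log2 difference 2.65, SE 0.33, adjusted p = 0.00012). The lysosomal proteases CTSB and CTSL rose from 1164 and 1054 to 2986 and 3196 TPM and from 303 and 296 to 638 and 686 TPM (adjusted p = 1.18e-06 and 1.46e-05). MMP2, a gelatinase, fell from 2245 and 1718 to 953 and 819.6 TPM (adjusted p = 0.000124), and TIMP1, an inhibitor of these enzymes, from 2642 and 2128 to 1069 and 1180.5 TPM (adjusted p = 0.000776). ADAMTS2, which trims procollagen, fell from 92.5 and 107 to 8.9 and 9.47 TPM (log2 difference -3.37, adjusted p = 3.94e-07). MMP14, which activates MMP2 at the cell surface, rose from 244 and 231 to 494 and 469 TPM, CTSS, a cathepsin of antigen-presenting cells, from 5.98 and 2.25 to 30.4 and 28.4 TPM and TIMP4 from 0.229 and 0.389 to 4.88 and 4.52 TPM. The sheddases ADAM12 and ADAM19 fell from 10.3 and 12.1 to 3.24 and 2.54 TPM and from 32.9 and 32.3 to 12.6 and 11.7 TPM, and MMP1, the interstitial collagenase, had 463 and 369.6 against 1049.8 and 704 TPM (log2 difference 1.05, adjusted p = 0.033). Leaving out single libraries removed the call for MMP14 and ADAM19 without any 1 of the 4 libraries, for CTSS without primary replicate b, immortalized replicate a or immortalized replicate b and for MMP2 and TIMP1 without primary replicate a (adjusted p between 0.00155 and 0.0494, in part at the fold limit).

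Genes of contraction, many of which TGF-beta induces in fibroblasts, were mostly lower. Of 29 tested genes 15 were called lower and 1 higher (background 6.26% and 5.98%), and the median log2 difference was -1.596. TAGLN, an actin-bundling protein of smooth muscle, went from 4087 and 3967 TPM in the primary to 611 and 765 TPM in the immortalized libraries (log2 difference -2.56, SE 0.44, adjusted p = 0.000984). ACTA2, smooth muscle actin and the usual mark of myofibroblasts, went from 744 and 496 to 85.5 and 68.1 TPM (log2 difference -2.98, SE 0.38, adjusted p = 0.000136). CNN1 (calponin) fell from 233 and 198 to 25.6 and 27.3 TPM, TPM1 (a tropomyosin) from 2207 and 2202 to 458 and 447 TPM and MYL9 (a myosin light chain) from 1899.5 and 1672 to 463 and 551 TPM, with adjusted p = 8.70e-07, 0.000339 and 1.05e-05. CCN2, a standard target of TGF-beta, fell from 1034 and 944 to 131 and 145 TPM (adjusted p = 0.00714), and the ligand TGFB2 from 14.1 and 12.4 to 0.782 and 0.813 TPM (log2 difference -3.41, adjusted p = 0.000989). The one rise was in ACTG2, the enteric form of smooth muscle actin, from 13.1 and 11.8 to 37.1 and 38.8 TPM (log2 difference 1.57, adjusted p = 7.39e-05). A fit with 1 library fewer lost the call for CCN2 without any 1 of the 4 libraries and for TAGLN without immortalized replicate a (adjusted p between 0.0115 and 0.0434).

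In the BMP pathway 12 of 25 tested genes were called lower and 4 higher (background 6.26% and 5.98%). The lower genes were led by the ID genes, inhibitors of differentiation that BMP signals switch on directly. ID1 had 115 and 213 TPM in the primary and 6.15 and 13.4 TPM in the immortalized libraries (log2 difference -4.02, SE 0.41, adjusted p = 2.70e-05). ID2 had 169 and 181 against 12.4 and 15.2 TPM (log2 difference -3.63, SE 0.16, adjusted p = 7.01e-08), ID3 266 and 339 against 18 and 31.8 TPM (log2 difference -3.62, adjusted p = 3.56e-05), and ID4 5.35 and 5.18 against 0.0782 and 0.243 TPM (log2 difference -3.14, adjusted p = 6.74e-06). All 4 members of the family thus fell without overlap between the lines, as did 40.7% of all genes tested. SMAD6, a feedback inhibitor of the pathway, fell from 4.01 and 4.8 to 0.120 and 0 TPM, SMAD9, a signal carrier, from 6.98 and 9.48 to 0.777 and 0.891 TPM, and BAMBI, a decoy receptor, from 10.6 and 11.8 to 2.58 and 2.41 TPM. Of the higher genes, FST (follistatin), which binds and blocks activins and BMPs, rose from 49.1 and 45.7 to 280.0 and 243 TPM (log2 difference 2.45, SE 0.26, adjusted p = 4.36e-05). The ligands BMP2 and GDF5 rose from 0.382 and 0.280 to 2.78 and 2.46 TPM and from 0.525 and 0.713 to 3.17 and 5.27 TPM, SMAD1 rose from 11.9 and 12 to 27.7 and 25.2 TPM, and the ligand BMP4 had 20.8 and 23.7 TPM against 24.6 and 31.3 TPM (adjusted p = 0.306). With 1 library left out, the call was lost for BAMBI without primary replicate b (adjusted p = 0.0111).

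**Figure D2:**
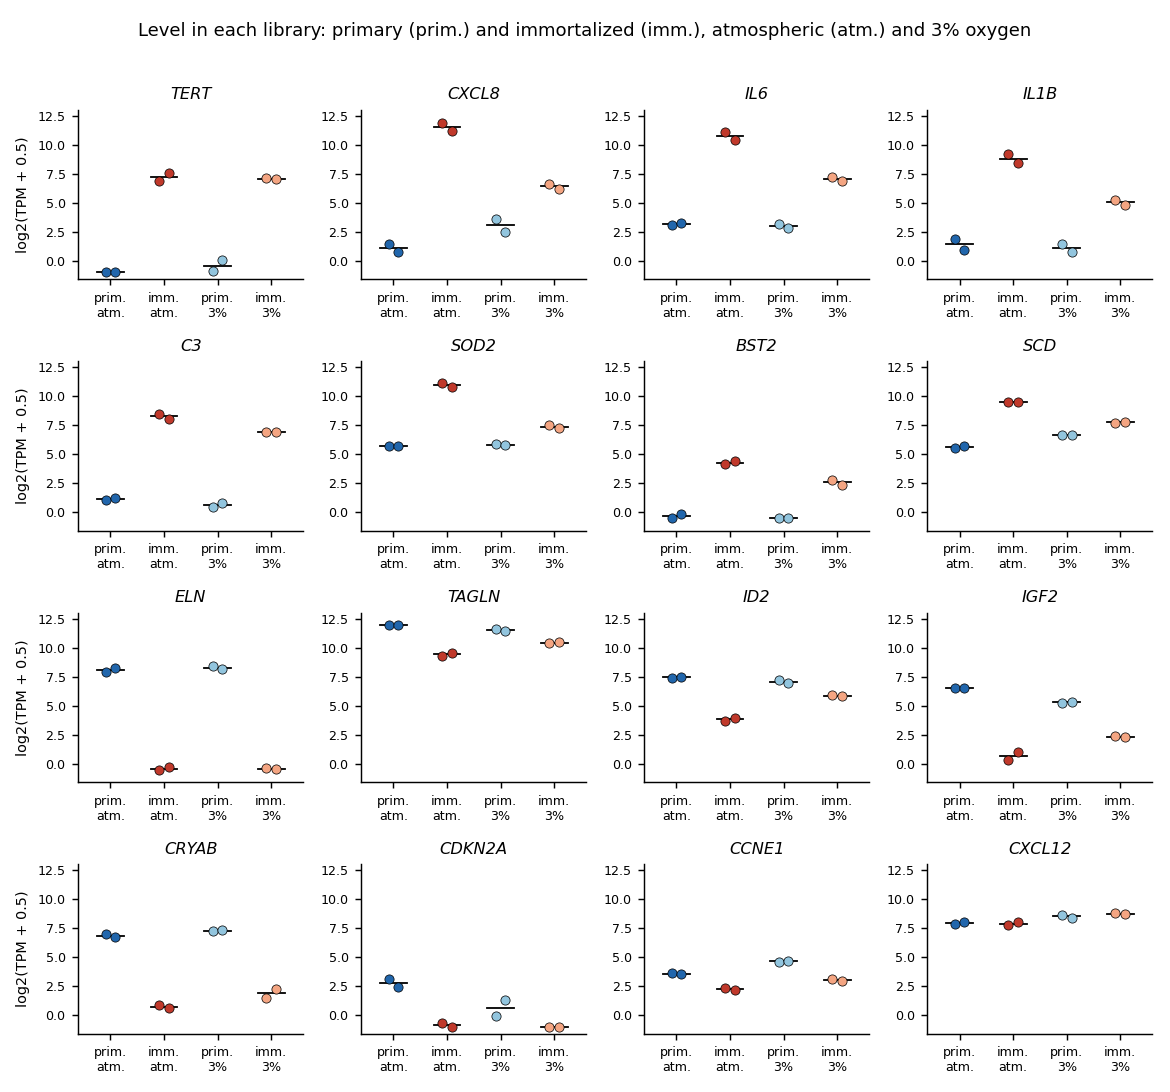
log2(TPM + 0.5) of 16 genes in each library, with 1 point for each of 2 replicates and a bar at their mean, for primary and immortalized cells at atmospheric and 3% oxygen. The mean bars of CXCL8 lie 10.4 log2 units apart at atmospheric oxygen and 3.37 at 3%, whereas the bars of CXCL12 nearly meet at atmospheric oxygen.

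The cell cycle inhibitors at the CDKN2A locus were low in primary cells and nearly silent after immortalization. CDKN2A, which encodes p16 and ARF, had 8.3 and 4.89 TPM in the primary and 0.132 and 0 TPM in the immortalized libraries (log2 difference -3.62, SE 0.37, adjusted p = 3.08e-05), on chromosome 9 from 21967751 to 21995300 of GRCh37. A pair of its transcripts exceeded 0.5 TPM in the primary libraries, CDKN2A-201 at 2.25 and 1.76 TPM and CDKN2A-212 at 5.38 and 1.59 TPM, and both were at 0 in the immortalized libraries. Its neighbor CDKN2B, encoding p15, had 3.9 and 4.17 TPM and then 0.0149 and 0 TPM (log2 difference -3.16, SE 0.31, adjusted p = 2.28e-05). CDKN1C, encoding p57, fell from 1.97 and 2.03 to 0.697 and 0.228 TPM (log2 difference -1.42, adjusted p = 0.00131). CDKN1A, encoding the p53 target p21, had 231 and 266 TPM against 237 and 282 TPM, overlapping between the lines (log2 difference 0.06, SE 0.34), and CDKN1B, encoding p27, 31.4 and 37 against 38.5 and 41 TPM. Of 25 other p53 target genes, 2 were called higher, near the background of 5.98%, and none lower (6 and 1 at an unadjusted p under 0.05), TNFRSF10B, a death receptor, from 48.3 and 55.6 to 119 and 113 TPM and XPC, a DNA repair protein, from 37.3 and 39.1 to 86.5 and 76.2 TPM. Without immortalized replicate a, 1 of them was called. The call was lost for CDKN1C without primary replicate b or immortalized replicate b and for XPC without immortalized replicate a (adjusted p between 0.00169 and 0.0135, in part at the fold limit).

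Genes of proliferation were lower by sign with few calls. Of 32 mitosis genes 31 were negative, 29 without overlap between the lines (background 40.7%), and 6 were called lower, with a median log2 difference of -0.77. The 6 were CENPF, KIF20A, CDC20, CCNB1, CCNA2 and UBE2C. With libraries quantile normalized the count was 3, and leaving out primary replicate a, primary replicate b, immortalized replicate a or immortalized replicate b gave 5, 3, 2 and 9. CCNB1, the mitotic cyclin B1, had 239 and 257 TPM in the primary and 111 and 122 TPM in the immortalized libraries (log2 difference -1.09, SE 0.15, adjusted p = 0.000218), and CENPF, a kinetochore protein, 85.1 and 84.1 against 34.6 and 29.7 TPM (log2 difference -1.39, adjusted p = 0.0019). MKI67, the common proliferation marker, was not called at 54.5 and 63.9 TPM in the primary and 40.9 and 47 TPM in the immortalized libraries (log2 difference -0.42, SE 0.24, adjusted p = 0.197). Of 33 DNA replication genes 2 were called lower, near the background of 6.26%, MCM10, which starts replication forks, from 13.6 and 13.8 to 3.75 and 5.51 TPM and GINS2 from 20.9 and 22.6 to 10.04 and 10.9 TPM, with a list median of -0.37 and counts of 3, 1, 1 and 4 lower when 1 library was left out. CCNE1, the G1 cyclin E1, fell from 11.7 and 11.4 to 4.5 and 3.88 TPM (log2 difference -1.36, SE 0.15, adjusted p = 4.46e-05). Leaving out single libraries removed the call for CENPF without primary replicate a, primary replicate b or immortalized replicate b, for KIF20A without primary replicate a, primary replicate b or immortalized replicate a, for CDC20 and GINS2 without primary replicate b or immortalized replicate a and for CCNA2 and UBE2C without immortalized replicate a (adjusted p between 0.000596 and 0.0312, in part at the fold limit).

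The E2F factors, which turn on replication genes, did not move together. E2F7, a repressor of the family, rose from 7.15 and 10.3 to 24.4 and 22.3 TPM (log2 difference 1.39, SE 0.18, adjusted p = 0.000162), and E2F8, its closest relative, fell from 7.26 and 8.43 to 2.89 and 3.31 TPM (log2 difference -1.21, SE 0.15, adjusted p = 0.000111). E2F1, the best known activator, had 26 and 30.2 TPM in the primary and 15.4 and 20.8 TPM in the immortalized libraries and stayed under the fold limit (log2 difference -0.63, adjusted p = 0.00742). The log2 differences of E2F2, E2F3, E2F4, E2F5 and E2F6 were -0.52, -0.26, 0.09, 0.69 and 0.36, none of them called. RB1 itself had 54 and 52.5 TPM against 35.9 and 35.2 TPM (log2 difference -0.58, adjusted p = 0.00193).

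Part of the genes of sterol and fatty acid synthesis were called higher in immortalized cells. SREBP factors switch these genes on when cell cholesterol is low, and 14 of 31 tested targets were called higher (background 5.98%) and none lower (22 and 1 at an unadjusted p under 0.05), with a median log2 difference of 1.005. Leaving out primary replicate a, primary replicate b, immortalized replicate a or immortalized replicate b left 10, 9, 9 and 10 of the calls. SCD, which makes monounsaturated fatty acids, rose from 44.6 and 50.6 TPM in the primary to 707 and 727 TPM in the immortalized libraries (log2 difference 3.9, SE 0.34, adjusted p = 9.57e-06). INSIG1, which retains SREBP in the endoplasmic reticulum, had 15.5 and 17.1 TPM against 135 and 136 TPM (log2 difference 3.02, SE 0.17, adjusted p = 4.08e-07). DHCR7, which forms cholesterol in its final step, had 18.2 and 21.7 TPM against 103 and 107 TPM (log2 difference 2.37, SE 0.2, adjusted p = 7.70e-06). Of the enzymes of the mevalonate path, HMGCS1 rose from 15.6 and 15.7 to 59.1 and 63.8 TPM and SQLE from 39.3 and 40.6 to 82.6 and 82.6 TPM (adjusted p = 0.00011 and 0.00184), and the regulators SREBF1 and SREBF2 from 32.4 and 53.1 to 114 and 151 TPM and from 33.7 and 32.7 to 104 and 97.2 TPM (adjusted p = 0.00902 and 1.47e-05). The fatty acid desaturase FADS2 rose to 655 and 603 TPM from 129 and 124 TPM. FASN, the fatty acid synthase, varied widely between replicates (24.8 and 48.3 TPM against 21.9 and 65.6 TPM, log2 difference 0.13, SE 0.72, adjusted p = 0.902). The sterol element, searched as TCACNCCAC, was in 1 of 11 promoters of the called genes, 1.93% of those of all genes called higher, 1.20% of tested genes and 1.09% of all genes. A fit with 1 library fewer lost the call for SQLE and SREBF1 without any 1 of the 4 libraries (adjusted p between 0.0122 and 0.0756).

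Small heat shock proteins are chaperones that bind unfolding proteins and actin. Of 7 such genes, 5 were called lower and 1 higher (background 6.26% and 5.98%), with a median log2 difference of -3.56. CRYAB (alpha-B crystallin) had 124 and 104 TPM in the primary and 1.38 and 1.0 TPM in the immortalized libraries (log2 difference -6.09, SE 0.3, adjusted p = 1.62e-07). HSPB6 had 48.4 and 39.9 against 0.905 and 1.14 TPM (adjusted p = 5.15e-07), and HSPB7 26.3 and 26.5 against 0.677 and 1.26 TPM (adjusted p = 5.17e-07). HSPB2, which shares a promoter region with CRYAB, had 4.43 and 6.55 TPM and was listed at 0 in both immortalized libraries (adjusted p = 1.18e-06), and HSPB1, the most abundant, fell from 519.7 and 606 to 128 and 221 TPM (adjusted p = 0.00217). HSPB3 was the exception and rose from 20.4 and 15.3 to 57.1 and 54.3 TPM (log2 difference 1.63, adjusted p = 0.000454, and 0.0233 with a pseudocount of 0.1 TPM). Keratins, filament proteins better known from epithelia, had 4 of 11 called lower (background 6.26%). KRT19 fell from 161 and 203 to 0.804 and 0.0637 TPM (log2 difference -7.72, SE 0.52, adjusted p = 1.44e-06) and KRT7 from 271 and 359 to 6.13 and 10.6 TPM (log2 difference -5.19, SE 0.26, adjusted p = 2.19e-07). VIM (vimentin), the filament protein of fibroblasts, fell from 5953 and 6211 to 2619 and 2762 TPM, the largest fall in TPM of any called gene (log2 difference -1.18, SE 0.11, adjusted p = 2.18e-05). With 1 library left out, the call was lost for HSPB1 without primary replicate a, primary replicate b or immortalized replicate a (adjusted p between 0.0103 and 0.0268).

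Enzymes against oxidants moved in both directions. PRDX6, a peroxidase that repairs membrane lipids, fell from 1748 and 1451 TPM to 408 and 370.0 TPM (log2 difference -2.03, SE 0.11, adjusted p = 2.40e-07), and GPX7, a peroxidase of the endoplasmic reticulum, from 37 and 30.7 to 0.763 and 0.519 TPM (log2 difference -4.91, SE 0.16, adjusted p = 9.04e-09). SOD2 was the only 1 of 17 antioxidant enzymes called higher (background 5.98%, for this list and the next). Of 23 targets of NRF2, the oxidant-sensing factor, 5 were called higher (5, 2, 3 and 3 with 1 of the 4 libraries left out), 4 of them aldo-keto reductases. AKR1B1, which reduces glucose and aldehydes, rose from 234 and 204 to 2947 and 2033 TPM (log2 difference 3.48, SE 0.27, adjusted p = 4.14e-06). AKR1C1 rose from 1.88 and 1.54 to 28.6 and 19.2 TPM (adjusted p = 1.15e-06). Its sequence is similar to those of AKR1C2 and AKR1C3, so that its share of reads is uncertain. The standard targets NQO1 and HMOX1 were not called, at 595 and 571 against 521 and 537 TPM and at 32.6 and 28.5 against 28.8 and 35.6 TPM. FTH1, the ferritin heavy chain that stores iron and has many pseudogenes, showed the largest rise in TPM, from 3554 and 2470.4 to 7987 and 6307 TPM (log2 difference 1.26, SE 0.17, adjusted p = 0.000177). With only the 4 libraries in the fit its adjusted p was 0.0191. The call was lost for AKR1C2 without any 1 of the 4 libraries, for AKR1C3 without primary replicate b, immortalized replicate a or immortalized replicate b and for FTH1 without primary replicate b (adjusted p between 0.00153 and 0.057, in part at the fold limit).

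Of 16 genes of arginine and polyamine metabolism, 5 were called higher (background 5.98%) and none lower (7 and 2 at an unadjusted p under 0.05). SLC7A2, an importer of arginine, rose from 0.274 and 0.289 to 18.7 and 15.4 TPM (log2 difference 4.48, SE 0.23, adjusted p = 2.19e-07). ASS1, which makes the precursor of arginine from citrulline, rose from 183 and 127 to 695 and 662 TPM (log2 difference 2.15, SE 0.29, adjusted p = 0.000207). ARG2, the mitochondrial arginase, and SAT1, which breaks down polyamines, rose from 3.55 and 3.76 to 14.4 and 13.3 TPM and from 28.4 and 28.6 to 178 and 131 TPM.

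Growth factors split evenly, with 6 of 28 tested called higher and 6 lower (background 5.98% and 6.26%). IGF2, an imprinted growth factor of fetal life, fell from 89.3 and 93.1 TPM in the primary to 0.752 and 1.45 TPM in the immortalized libraries (log2 difference -5.87, SE 0.22, adjusted p = 2.22e-08), and IGFBP3, which binds insulin-like growth factors, from 1896 and 1661 to 128 and 122 TPM (log2 difference -3.82, SE 0.32, adjusted p = 7.47e-06). INHBA, the activin A chain, fell from 20.3 and 16.1 to 1.68 and 1.27 TPM, BDNF, a neurotrophin, from 28.4 and 25.7 to 6.79 and 6.72 TPM and PDGFA from 11 and 12.6 to 2.93 and 2.73 TPM, and PDGFD was lower by a log2 difference of -1.02. In the other direction, HGF, the scatter factor, rose from 0.945 and 0.673 to 25.8 and 27.5 TPM (log2 difference 4.38, SE 0.5, adjusted p = 6.68e-05), EREG, a ligand of the EGF receptor, from 18.8 and 22.9 to 234 and 189 TPM (adjusted p = 0.000349), and VEGFA from 32.1 and 27.4 to 91 and 77.3 TPM (adjusted p = 0.000511). STC1, FGF7 and FGF5 were higher by log2 differences of 4.19, 1.23 and 1.01. The receptor PDGFRA, a fibroblast marker, rose from 54.2 and 51.7 to 233 and 199 TPM (log2 difference 2.01, adjusted p = 4.28e-05), and the receptor IGF2R, which clears IGF2, from 51.4 and 50.3 to 109.8 and 105 TPM (adjusted p = 0.000832). Of 24 receptors and IGF-binding proteins these 2 were the only ones called higher, and 5 were called lower, IGFBP3, IGFBP2, EPHB2, NTRK2 and TEK. In the Wnt pathway 3 of 21 were called higher and 1 lower, with the same background. SFRP1, a secreted inhibitor, rose from 32.3 and 27.4 to 536 and 537 TPM (log2 difference 4.15, SE 0.54, adjusted p = 0.000165), and RSPO3, an enhancer of Wnt signals, was listed at 0 in both primary libraries and had 3.78 and 3.79 TPM in the immortalized libraries (adjusted p = 0.00102). ROR2, a Wnt receptor, rose from 1.69 and 2.05 to 5.02 and 7.04 TPM, and the ligand WNT2 fell from 2.32 and 2.05 to 0.0719 and 0 TPM. Leaving out single libraries removed the call for FGF7 without any 1 of the 4 libraries, for PDGFD and FGF5 without primary replicate a, immortalized replicate a or immortalized replicate b, for ROR2 without primary replicate a or immortalized replicate b and for PDGFA without primary replicate b (adjusted p between 0.012 and 0.0659, in part at the fold limit).

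Guidance cues had 7 of 25 called higher and 2 lower (background 5.98% and 6.26%, for every list in this paragraph). The SLIT ligands split, with SLIT2 rising from 47.6 and 62 to 174 and 162 TPM and SLIT3 falling from 13.9 and 14.8 to 1.8 and 2.09 TPM (adjusted p = 3.70e-05 and 2.82e-06), and NTN4 (netrin 4) rose from 99.7 and 96.8 to 411 and 365 TPM (adjusted p = 2.60e-07). The semaphorins SEMA3F, SEMA3A and SEMA6D rose by log2 differences of 2.38, 1.99 and 1.77, and SEMA3D fell from 19.5 and 20.3 to 7.67 and 8.04 TPM. Of 6 cadherins tested, 3 were called lower and 1 higher. N-cadherin (CDH2) fell from 194 and 191 to 51.6 and 54.6 TPM (adjusted p = 0.000889). CDH6 and CDH11 fell from 1.44 and 1.34 to 0.141 and 0.0628 TPM and from 239 and 255 to 115 and 131 TPM. Of 15 integrin genes ITGB2, ITGA7 and ITGB3 were called higher, at 0.0427 and 0.0416 against 1.32 and 2.94 TPM, 1.03 and 2.27 against 7.47 and 7.87 TPM and 6.95 and 7.04 against 20.6 and 19.4 TPM, and ITGA8 and ITGA11, receptors for matrix, lower, at 9.62 and 10.2 against 1.7 and 3.01 TPM and 93.2 and 65.9 against 28.7 and 30.4 TPM. Clustered protocadherins, from which each cell uses its own set as an identity code, had 9 of 20 called higher and 4 lower. PCDHB8 had 0.140 and 0.0623 TPM in the primary and 5.95 and 5.96 TPM in the immortalized libraries (adjusted p = 3.94e-07), while PCDHGA10 had 8.94 and 6.68 TPM against 0.218 and 0.158 TPM (adjusted p = 1.44e-06). Genes of the PCDHG cluster share their last exons, so their single levels are uncertain. A fit with 1 library fewer lost the call for ITGB3 and ITGA11 without any 1 of the 4 libraries, for SEMA3A without primary replicate a, immortalized replicate a or immortalized replicate b, for SEMA6D without primary replicate a, primary replicate b or immortalized replicate a and for CDH11 without primary replicate b or immortalized replicate a (adjusted p between 0.000216 and 0.0556, in part at the fold limit).

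Among transcription factors that pattern limb and skin, 4 of 31 were called higher and 4 lower (background 5.98% and 6.26%). With 1 library left out, fewer were called higher in every fit, and the count of lower calls moved in both directions. SHOX2 fell from 6.13 and 5.93 to 0.859 and 0.640 TPM (adjusted p = 0.000156) and OSR2 from 80.8 and 78.7 to 21.8 and 32 TPM (adjusted p = 0.000145), with HAND2 and PRRX2 lower by log2 differences of -2.18 and -2.1. PITX1, a factor of the hindlimb, had 4.48 and 6.97 against 15 and 23.1 TPM, and MSX2 and SIX2 were higher by log2 differences of 1.52 and 1.03. Of 18 HOX genes, which record the body position of a fibroblast, 1 was called, beside 12.2% of all genes. It was HOXD8, from 0.628 and 0.450 to 7.08 and 5.33 TPM (log2 difference 2.68, SE 0.25, adjusted p = 1.55e-05). PPARG, the regulator of fat cells, rose from 5.56 and 4.8 to 33.3 and 31.9 TPM (log2 difference 2.55, SE 0.23, adjusted p = 1.30e-05). Serum-responsive genes had 7 of 27 called higher and 3 lower (background 5.98% and 6.26%). The higher genes were led by the phosphatase DUSP4, from 2.38 and 2.81 to 32.7 and 32.5 TPM (adjusted p = 3.49e-05). The lower genes were EGR1, from 35 and 39.2 to 14.8 and 20.5 TPM, EGR2, from 2.25 and 1.9 to 0.160 and 0.188 TPM, and KLF2, from 4.75 and 8.6 to 2.07 and 2.02 TPM. Targets of the hypoxia factor HIF had 6 of 27 called higher and 1 lower at atmospheric oxygen, with the same background. NDRG1, a stress protein, had 30.1 and 26.7 TPM against 140.4 and 111 TPM (adjusted p = 0.000263). BNIP3, which marks mitochondria for removal, had 59.9 and 59.3 against 132 and 128 TPM (adjusted p = 0.000728). LOXL2, a collagen crosslinker, was lower, at 214 and 269 TPM in immortalized against 605 and 693 TPM in primary cells. CA9, the most hypoxia-specific of these targets, had 0.990 and 0.344 against 4.55 and 7.73 TPM (adjusted p = 0.00193). With 1 library left out, the call was lost for PITX1 without any 1 of the 4 libraries, for HAND2, SIX2 and KLF2 without primary replicate b, immortalized replicate a or immortalized replicate b, for EGR1 without primary replicate a, primary replicate b or immortalized replicate a, for PRRX2 without primary replicate b or immortalized replicate a and for CA9 without primary replicate b or immortalized replicate b (adjusted p between 0.0102 and 0.0674, in part at the fold limit).

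Respiratory chain and ribosomal protein genes held few calls beside the 12.2% of all genes, and zinc finger genes few higher calls. None of 76 nuclear-encoded respiratory chain and ATP synthase genes was called by limma. Of 85 cytosolic ribosomal protein genes 1 was called lower (RPL26L1, at 117 and 116 against 52.8 and 49.5 TPM). Of 432 zinc finger genes with a ZNF symbol, 2 were called higher (ZNF398 and ZNF608), against 5.98% of all genes. Another 23 were called lower, near the background of 6.26%. Of 27 genes of glycolysis and lactate, 11.1% were called, near the 12.2% of all genes. ALDOC and HK1 were called higher and PFKP lower, at 106 and 126 against 50.6 and 59.2 TPM. Leaving out any single library removed the call for RPL26L1. The call was lost for ZNF398 without primary replicate b, immortalized replicate a or immortalized replicate b. PFKP fell under the fold limit without primary replicate b or immortalized replicate a. The respiratory chain genes had a median log2 difference of -0.24 and the ribosomal protein genes of 0.19. At an unadjusted p under 0.05, 6 of the respiratory chain genes were higher and 28 lower, and 31 of the ribosomal protein genes were higher and 8 lower. The count of called respiratory chain genes was also 0 under median-ratio rescaling and quantile normalization, but not in every fit with 1 library left out.

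**Figure D3:**
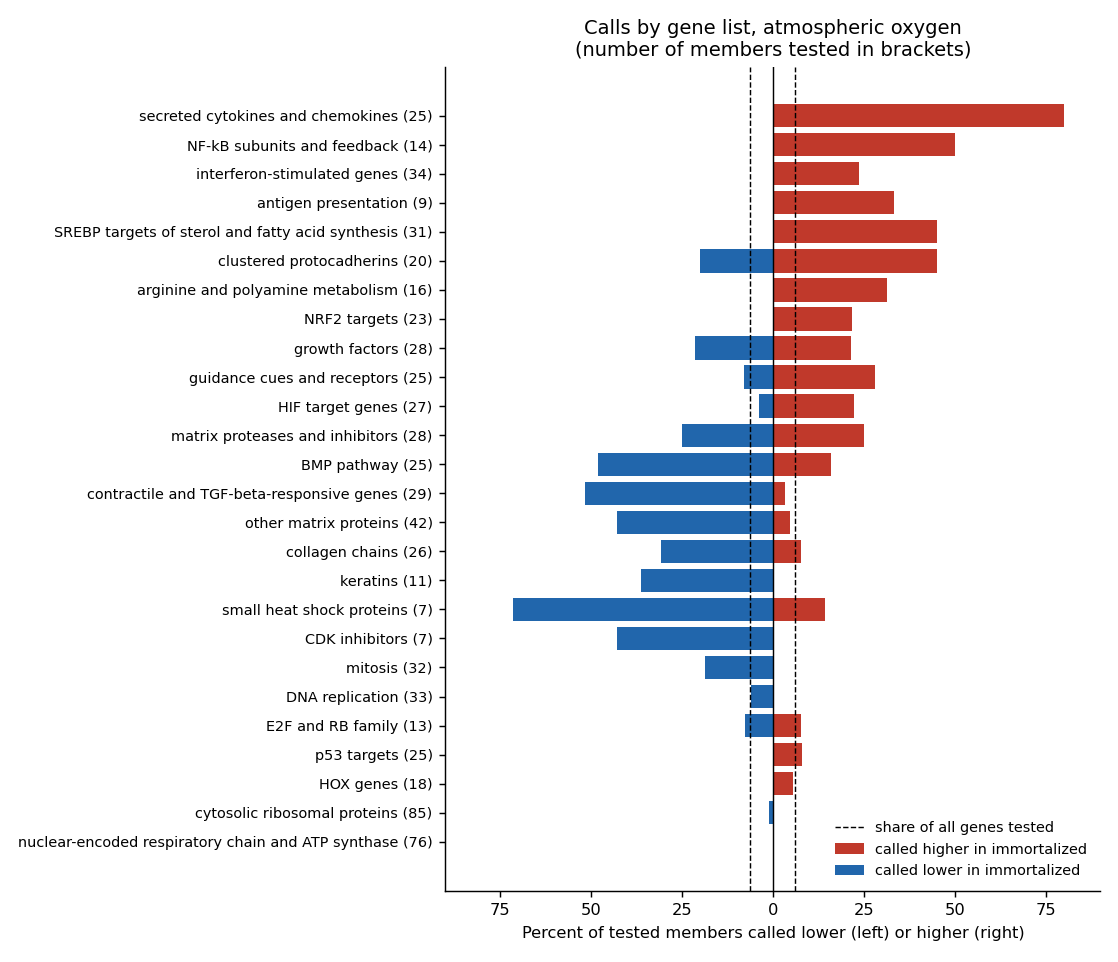
Percent of the tested members of 26 gene lists called lower (blue, left) or higher (red, right) in immortalized cells at atmospheric oxygen, with the number tested in brackets and the shares of all genes (6.26% and 5.98%) as dashed lines. Cytokines reach the furthest right and small heat shock proteins the furthest left, and the respiratory chain has no call.

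The same step at 3% oxygen was measured in 4 libraries that share no sample with those above. It gave 1128 DEGs among 12218 genes (9.23%), 512 higher (4.19%) and 616 lower (5.04%), and 738 and 743 without immortalized replicate a and b at 3% oxygen. Of the 741 genes called higher at atmospheric oxygen, 661 were tested at 3%, 599 of them (90.6%) had the same direction, 303 were called again and 4 were called in the opposite direction. Of the 776 called lower, 718 were tested, 678 (94.4%) had the same direction, 371 were called again and 2 were called the opposite way. Of the genes not called at atmospheric oxygen 70.4% had the same direction. Over the genes chosen by their atmospheric calls, the median log2 difference was 1.72 at atmospheric and 1.14 at 3% oxygen for the higher genes, and -1.64 and -1.15 for the lower genes. Over the genes chosen by their calls at 3% oxygen it was 1.45 at atmospheric and 1.7 at 3% oxygen for the higher genes, and -1.47 and -1.58 for the lower genes, so each choice gave the larger values at the oxygen level it was made on.

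A test of the difference between the steps called 235 of 12632 genes (1.86%), 101 with a higher (0.8%) and 134 with a lower step (1.06%) at 3% oxygen. Without primary replicate a or b the count was 132 and 104 at atmospheric oxygen and 99 and 130 at 3%, and without immortalized replicate a or b it was 89 and 116 at atmospheric oxygen and 76 and 74 at 3%. CXCL8 showed the largest negative difference. It had 11.9 and 4.97 TPM in primary and 98 and 73.3 TPM in immortalized cells at 3% oxygen, a step of 3.37 against 10.4 at atmospheric oxygen (difference -7.03, SE 1.06, adjusted p = 0.00332). CXCL2 and CXCL3, with the reservation above, had 1.4 and 1.6 and 2.12 and 2.35 TPM in immortalized cells at 3% oxygen (differences -5.14 and -5.55). SOD2 had 59 and 53.3 TPM against 179 and 153 TPM at 3% oxygen (difference -3.69, SE 0.64, adjusted p = 0.00702). IL6 and C3 did not pass this test. IL6 had 8.38 and 6.42 against 149 and 118 TPM at 3% oxygen (difference -3.46, SE 1.01, adjusted p = 0.0623), and C3 0.896 and 1.28 against 120.3 and 117 TPM (difference -0.87, SE 0.72, adjusted p = 0.538). Of the 17 cytokine genes tested at 3% oxygen 7 were called higher, and of 31 interferon-stimulated genes 13 (background 4.19%). At atmospheric oxygen 25 and 34 of these genes were tested. Genes such as CSF3 and CXCL5 stayed under a mean of 1 TPM in both lines at 3% oxygen, so the counts are not over the same genes. TERT itself had 0.0370 and 0.543 TPM in primary and 143 and 128 TPM in immortalized cells at 3% oxygen. It was lost for CXCL2, CXCL3 and SOD2 without any 1 of the 8 libraries and for CXCL8 without any 1 library other than primary replicate b at 3% oxygen (adjusted p between 0.0102 and 0.0355).

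Some steps turned around between the oxygen levels. MMP3 rose at atmospheric oxygen and fell at 3%, where it had 215 and 288 TPM in primary and 49.97 and 56.5 TPM in immortalized cells (difference -4.86, SE 0.47, adjusted p = 0.000349). IL13RA2, a decoy receptor for IL-13, rose from 1.39 and 1.66 to 30.8 and 18.2 TPM at atmospheric oxygen and fell from 7.95 and 7.38 to 0.955 and 1.11 TPM at 3% (difference -5.99, SE 0.37, adjusted p = 2.81e-05). FHL1, a LIM protein of muscle, did the reverse, from 634 and 612 to 187 and 200.3 TPM at atmospheric oxygen and from 67.6 and 83.6 to 229.9 and 245 TPM at 3% (difference 3.33, SE 0.19, adjusted p = 2.81e-05). Primary and immortalized cells at atmospheric oxygen did not overlap for any of these 3 genes, as for 72.3% of all genes. PGA4, a pepsinogen gene with near-identical copies, was listed at 0 in the primary libraries and at 22.5 and 33.9 TPM in the immortalized libraries at atmospheric oxygen, and at 0.106 and 0.763 TPM in immortalized cells at 3%. The largest positive differences were those of C5orf46, KRTAP1-5, PTPRQ, KRTAP3-1 and FHL1, the first 3 of which were called at 3% oxygen alone, C5orf46 with 1.5 and 2.58 TPM in primary and 52.8 and 59 TPM in immortalized cells there and 0.740 and 0.531 against 1.1 and 1.39 TPM at atmospheric oxygen. The difference stayed past the threshold for MMP3, IL13RA2, FHL1, PGA4 and KRTAP1-5 with each of the 8 libraries left out. It was lost for C5orf46 without any 1 library other than primary replicate b at 3% oxygen and immortalized replicate b at atmospheric oxygen, for KRTAP3-1 without immortalized replicate a at 3% oxygen, immortalized replicate b at 3% oxygen or immortalized replicate a at atmospheric oxygen and for PTPRQ without immortalized replicate a at 3% oxygen (adjusted p between 0.0101 and 0.0153).

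The sterol genes differed in part. At 3% oxygen 1 of 31 was called higher and 2 lower, with a median log2 step of -0.28 against 1.005 at atmospheric oxygen, and the difference was called for 12 of them, all with a lower step at 3% oxygen (background 1.06%). SCD had 97.3 and 102 TPM against 209.6 and 223 TPM at 3% oxygen (difference -2.79, SE 0.48, adjusted p = 0.00641), and DHCR7 52 and 53.2 TPM against 31.6 and 42 TPM (difference -2.89, SE 0.28, adjusted p = 0.000366). ID2 also stepped down less at 3% oxygen, from 147 and 120.0 to 58.7 and 57.8 TPM (difference 2.44, SE 0.22, adjusted p = 0.00025), and IGF2 from 37.2 and 39.8 to 4.71 and 4.41 TPM (difference 2.93, SE 0.31, adjusted p = 0.000578). ELN also fell at 3% oxygen, from 350.4 and 278 to 0.254 and 0.216 TPM (difference -0.25, SE 0.32, adjusted p = 0.72). The difference stayed past the threshold for DHCR7, ID2 and IGF2 with each of the 8 libraries left out. It was lost for SCD, HMGCS1 and SREBF2 without any 1 of the 8 libraries and for INSIG1 without immortalized replicate a at 3% oxygen.

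**Figure D4:**
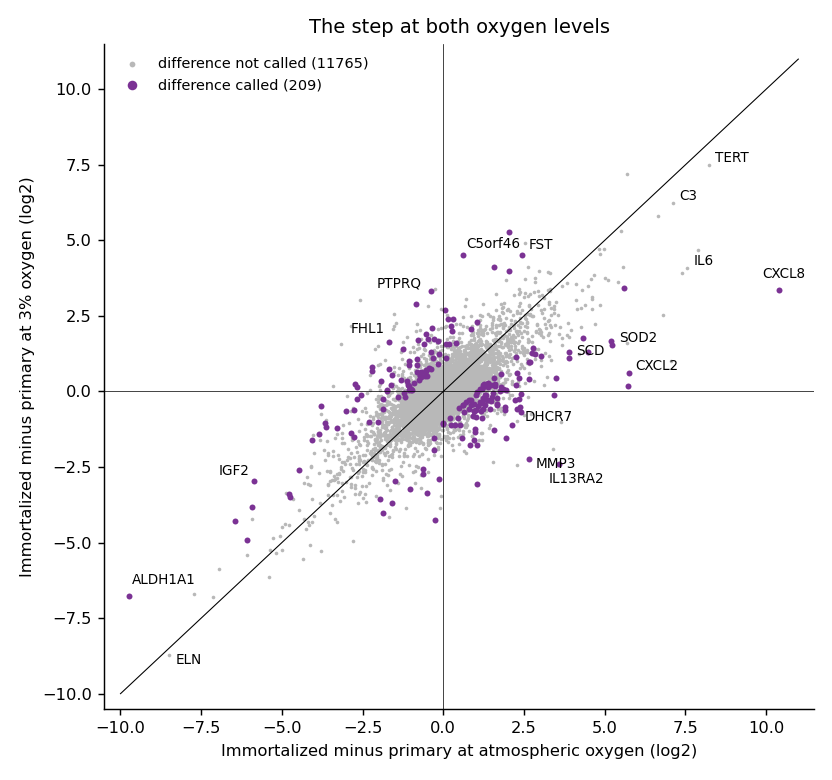
log2 difference between immortalized and primary cells at atmospheric oxygen (x axis) and at 3% oxygen (y axis) for the genes tested at both, with the genes called for the difference between the steps in purple and the line of equal steps in black. CXCL8, SOD2 and SCD lie below the line, MMP3 and IL13RA2 at the lower right, FHL1 at the upper left, and ELN and C3 near the line.

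The position of the genes on the chromosomes, which the choice of libraries did not use, was examined after the values were seen. In 151 windows of 20 Mb with at least 20 tested genes, the lowest medians were those of the 2 windows of chromosome 10 below 40 Mb (GRCh37), at -0.82 and -0.64. The lowest median outside chromosome 10 was -0.39 and the highest 0.33. Over all genes tested, 56.6% were lower in immortalized cells, 6.26% were called lower and 5.98% higher. Of the 109 genes tested below 40 Mb on chromosome 10, 90 were lower in immortalized cells, 27 were called lower and 4 higher, with a median of -0.72. Of the 367 genes above 40 Mb, 278 were higher, 44 were called higher and 14 lower, with a median of 0.41. At 3% oxygen the medians were -0.81 and 0.43. In the transformed and metastasizing cells the medians of the same genes against primary cells at the same oxygen level lay between -0.08 and 0.13 below 40 Mb and between 0.05 and 0.27 above. Of the called genes named above, VIM, MCM10, BAMBI, ITGA8 and PFKP, all lower, lie below 40 Mb, and so do AKR1C1, AKR1C2 and AKR1C3, which went the other way. Above 40 Mb lie SCD, PLAU, IFIT3, NFKB2, HK1 and BNIP3, all higher, and ACTA2, ADAM12 and EGR2, which were lower. Copy number was not measured, and the part of position in these results was not tested.

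**Figure D5:**
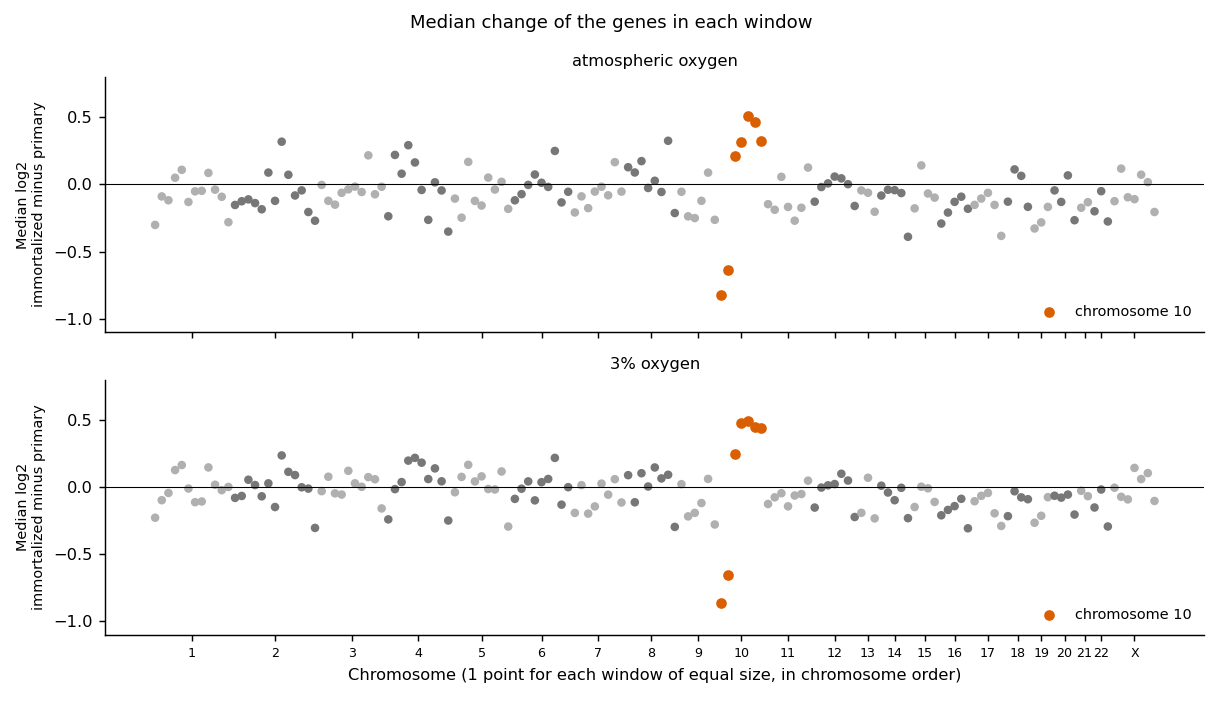
Median log2 difference between immortalized and primary cells over the tested genes of each of 151 windows of 20 Mb, in chromosome order, at atmospheric oxygen (top) and 3% oxygen (bottom), with chromosome 10 in orange. The first 2 windows of chromosome 10 lie at -0.82 and -0.64 at atmospheric oxygen, below all others, and its remaining 5 lie above 0.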

How the data were processed

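The deposited values were TPM per transcript, made by the authors with kallisto 0.42.1 from stranded mRNA libraries on GRCh37. No read counts were used here, so depth is unknown. Of 180253 transcripts, 151453 matched GENCODE 44 (lifted to GRCh37), and their TPM was summed over 19356 protein-coding genes. Genes whose mean reached 1 TPM in primary or immortalized cells were compared as log2(TPM + 0.5) with limma 3.58.1 in R 4.3.3 (intensity trend), fitted over all 16 libraries in 8 groups, with Benjamini-Hochberg adjustment over the genes of each comparison, and a log2 difference understates the change of low genes. The authors' count model was not repeated. On simulated data 188 of 200 changed genes (94%) were recovered with no false call. The changed genes had at least 5 TPM in primary cells and log2 changes of 2 or 3, and all other genes were set equal between the lines. The simulation therefore does not cover calls near the fold limit or from genes near 0 TPM, and it could hardly give a false call. Promoters came from RefSeq (GRCh38.p14).

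The members and gene lists were chosen with earlier results of these data known. Named genes were the telomerase, cell cycle inhibitor, E2F, thrombospondin and chemokine genes, the 10 largest rises and falls, the 5 largest in TPM and between oxygen levels, and leading called members of each list. Alternatives varied the pseudocount, filter, scaling, libraries, weights and threshold.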

Additional observations from a re-analysis of the deposited data

Results flagged for a closer look

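A difference between the steps at the 2 oxygen levels was found by its own test in limma (Benjamini-Hochberg adjusted p under 0.01, difference above 1 on the log2 scale) for 46 of the genes named here. Each value that follows is the log2 difference between immortalized and primary cells at 3% oxygen minus the same at atmospheric oxygen. Among secreted and inflammatory genes the differences were CXCL8 -7.03, CXCL3 -5.55, CXCL2 -5.14, CCL11 -3.11, IL13RA2 -5.99 and SOD2 -3.69. Matrix enzymes gave MMP3 -4.86, MMP1 -2.84, MMP14 -1.85, CTSB -1.28 and CTSL -1.5, and sterol genes DHCR7 -2.89, SCD -2.79, HMGCS1 -1.9, INSIG1 -1.86 and SREBF2 -1.35. Other genes with a lower step at 3% oxygen were PGA4 -5.01, AKR1C1 -3.57, SAT1 -3.08, AKR1B1 -3.03, TEK -2.15, E2F7 -1.67, IGF2R -1.55 and ARG2 -1.21.

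Positive differences belonged mostly to genes that fell at atmospheric oxygen. Matrix and contractile genes gave TGFBI 2.1, CNN1 2.34, COL11A1 1.84, COMP 1.38, ACTG2 2.55 and FHL1 3.33, and growth factors and their inhibitors IGF2 2.93, BDNF 2.27, FST 2.06 and ID2 2.44. The remaining values were C5orf46 3.89, KRTAP1-5 3.74, PTPRQ 3.72 and KRTAP3-1 3.54, followed by ALDH1A1 2.97, MGARP 2.15, OSR2 2.13, EFHD1 2.1, EGR1 2.08, NQO1 1.39, TMEM47 1.14 and PRDX6 1.02. ALDH1A1, COMP, KRTAP3-1 and PGA4 were listed at 0 in both libraries of 1 group at atmospheric oxygen, so that their values depend on the pseudocount. In immortalized cells at 3% oxygen, ALDH1A1 was again listed at 0 in both libraries and COMP at 0.0302 and 0 TPM. Their differences therefore reflect lower levels in primary cells at 3% oxygen, at 50.8 and 57.8 TPM for ALDH1A1 and 5.08 and 4.81 TPM for COMP. The adjusted p of these differences lay between 2.81e-05 and 0.00838. With any 1 of the 8 libraries of the 2 steps left out, the call was lost for ARG2, BDNF, COL11A1, COMP, CXCL2, CXCL3, EFHD1, FST, HMGCS1, IGF2R, MGARP, MMP1, SCD, SOD2, SREBF2 and TMEM47, and with some of them left out it was lost for C5orf46, CCL11, CXCL8, E2F7, EGR1, INSIG1, KRTAP3-1, MMP14, NQO1, OSR2, PRDX6, PTPRQ and SAT1 (adjusted p of the lost calls between 0.0101 and 0.0405). It was kept with each of them left out for ACTG2, AKR1B1, AKR1C1, ALDH1A1, CNN1, CTSB, CTSL, DHCR7, FHL1, ID2, IGF2, IL13RA2, KRTAP1-5, MMP3, PGA4, TEK and TGFBI.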

How the results depend on the processing

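Across 13 other settings the count of DEGs at atmospheric oxygen stayed between 1127 (filter of at least 5 TPM) and 1836 (adjusted p under 0.05) beside 1517, and with 1 library left out between 1112 and 1297. Median-ratio rescaling and quantile normalization turned the split from 741 higher and 776 lower to 844 and 707 and to 833 and 696. At 3% oxygen leaving out 1 library gave 738 to 841 DEGs beside 1128. The count for the difference between oxygen levels moved most, from 235 to 377 with only the libraries compared, 484 without the metastasizing libraries at 3% oxygen, 540 with array weights, 565 at an adjusted p under 0.05, and 74 to 132 with 1 library left out. Fewer libraries entered the first and second of these fits and every one with a library left out, and the cause of the other shifts was not tested. With the replicate block, that is with the replicate letters as pairs, the counts were 1480 at atmospheric oxygen, of which 1466 were also among the 1517, 1093 at 3% and 179 for the difference. Among the named differences the block lost COMP (adjusted p = 0.0148), FST (0.0126), NQO1 (0.0118), COL11A1 (0.0116), MMP1 (0.0114), EGR1 (0.0104), TMEM47 and EFHD1 (both 0.0102). Same-lettered libraries deviated together only weakly (r = 0.246 at atmospheric and 0.170 at 3% oxygen, across genes), and with 2 pairs the letters were not taken as a pairing. For the 248 named genes, 3071 of 3190 values kept their direction and side of the threshold, 92 lost and 25 gained a call, and 2 uncalled values changed sign. With 1 library left out, 184 of 990 values lost the call. For the 46 differences, 34 of 597 values lost the call, and 188 of 368 did with 1 library left out. No called value changed sign. Depth is unknown in TPM files, so low values carry an error that could not be given.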

Other observations

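Genes around CDKN2A on chromosome 9 were read in all 16 libraries after their values were seen, as a description. CDKN2A stood between 0 and 0.132 TPM in the 4 immortalized libraries at both oxygen levels, between 0.461 and 8.30 TPM in the 4 primary libraries and between 74.9 and 151 TPM in the 8 transformed and metastasizing libraries. CDKN2B stood between 0 and 0.0149 TPM in the immortalized and between 4.54 and 23.9 TPM in the transformed and metastasizing libraries. TUSC1, further along the same arm, was listed at 0 in all 4 immortalized libraries, against 2.28 to 4.02 TPM in the primary and 1.87 to 3.47 TPM in the transformed and metastasizing libraries. DMRTA1, which lies between CDKN2B and TUSC1, did the opposite, listed at 0 in all primary libraries, at 2.40 to 4.89 TPM in the immortalized and at 0.123 to 0.472 TPM in the transformed and metastasizing libraries. MTAP and KLHL9 on the other side of CDKN2A were expressed throughout, at 38.2 to 65.3 TPM and 9.75 to 14.2 TPM in the immortalized libraries.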
